A study of Mus musculus with 3 samples.

Results

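MiR-129 is a microRNA (miRNA), a short RNA that guides Argonaute proteins to messenger RNAs with matching sites. It is made from 2 hairpins at separate places in the mouse genome. Both hairpins give the same 5p miRNA, mmu-miR-129-5p, whereas the 3p miRNAs from the opposite arm carry the number of their locus, mmu-miR-129-1-3p and mmu-miR-129-2-3p. These 3 miRNAs are described here out of the 1915 mature mouse miRNAs listed for each sample. They were selected by name and for the course of their own read counts over the 3 ages, so these courses are given as a description and no test was run on them. The samples were retinas of C57BL/6 mice (the labels' name; C57BL/6J in the study's methods) taken 1, 7 and 17 days after birth (P1, P7 and P17), with no treatment or genetic change named in the labels. Retinas from 5 eyes were pooled into 1 library per age, so there were no replicates. How the libraries were prepared and how old the mice were cannot be told apart in this design. The libraries held 11426320 to 12759995 miRNA reads. Levels are in RPM, the reads of a miRNA scaled to 1000000 miRNA reads in its library, so that 1 read is worth 0.0784 to 0.0875 RPM. Intervals are at the 95% level and come from exact binomial intervals, those of a difference being combined from both libraries. They cover counting error alone and not the spread between samples. Even for counting error they may be too narrow, because reads copied by PCR and lacking molecular identifiers are not independent molecules.

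A hairpin is cut by the enzymes Drosha and Dicer into a duplex of its 5p and 3p arms, and usually 1 arm is kept by Argonaute while the other is degraded. Bases 2 to 8 of the kept strand, the seed, pair with target messenger RNAs. MiR-129 is known as a miRNA of neurons and other excitable cells. In cultured neurons miR-129-5p is known to repress the potassium channel gene Kcna1, and in the developing frog retina miR-129 is one of several miRNAs that restrain the translation of homeobox genes needed for bipolar cells, the interneurons between photoreceptors and ganglion cells. At P1 rods, bipolar cells and Müller glia are still being born, around P7 cell birth is coming to its end while rods and bipolar cells differentiate, and at P17 the eyes are open. Retina was sequenced whole, so fewer cells of a type and less RNA per cell cannot be told apart.

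The mature sequences show what separates the arms and the loci. RefSeq on GRCm38.p6, the same assembly as mm10, lists 2 of the 3 mature miRNAs. They are printed 5′ to 3′ with the seed in capitals. The 3p entry of the Mir129-1 locus is not in that table, and the stretch of the Mir129-1 hairpin that best matches mmu-miR-129-2-3p is printed in its place.
mmu-miR-129-5p: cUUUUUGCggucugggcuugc
mmu-miR-129-2-3p: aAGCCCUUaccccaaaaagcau
best match in the Mir129-1 hairpin: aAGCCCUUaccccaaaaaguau
The 3p arms thus have the same seed. They differ at 1 of 22 bases, the substitution C20U counted from the 5′ end of mmu-miR-129-2-3p. A read that ends before base 20 is identical for both loci, and how such reads were assigned is not given in the sources used here. Among the 1679 mature mouse miRNA names in the RefSeq table, 0 others had the seed of mmu-miR-129-5p and 0 others that of mmu-miR-129-2-3p.

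The hairpins are printed with the 5p miRNA and the 3p stretch in capitals, because the flanks and the loop, in lower case, differ between the 2 loci while the capitals differ at the 1 base given above.
Mir129-1: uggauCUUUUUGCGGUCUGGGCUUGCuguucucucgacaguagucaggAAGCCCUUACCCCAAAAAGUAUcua
Mir129-2: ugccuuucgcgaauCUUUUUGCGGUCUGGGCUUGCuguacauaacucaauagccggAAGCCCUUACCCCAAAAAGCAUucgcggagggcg
Mir129-1 lies on the plus strand at chr6:29022619-29022691 and is 73 bases long. Its 5p miRNA is at chr6:29022624-29022644 and its 3p stretch at chr6:29022667-29022688. In the GENCODE annotation of the same assembly it overlaps exon 2 of Gm3294, a gene for a long non-coding RNA, and the nearest protein-coding gene is Lep, which encodes the hormone leptin, 37529 bases away. Mir129-2 lies on the minus strand at chr2:94241364-94241453 and is 90 bases long. Its 5p miRNA is at chr2:94241419-94241439 and its 3p miRNA at chr2:94241376-94241397. It is intronic to Mir670hg, also a long non-coding RNA gene, in each of the 3 annotated transcripts that span it. The loop between the arms has 22 bases in Mir129-1 and 21 in Mir129-2.

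All 3 miRNAs were more abundant at each later age. For miR-129-5p, the strand shared by both loci, the P1, P7 and P17 libraries held 14377, 28778 and 121703 reads. These are levels of 1258 RPM (1238 to 1279), 2255 RPM (2229 to 2282) and 10438 RPM (10380 to 10496). The P17 library stands far above the other two, which lie closer together. MiR-129-5p was in place 82 of the 1915 miRNAs at P1, 44 at P7 and 19 at P17, when it took 1.04% of all miRNA reads. For miR-129-2-3p, from the Mir129-2 locus, the libraries in the same order held 116, 328 and 1312 reads, or 10.2 RPM (8.39 to 12.2), 25.7 RPM (23.0 to 28.6) and 112.5 RPM (106.5 to 118.8). It too was highest at P17 and lowest at P1. MiR-129-1-3p was the rarest at every age, with 46, 88 and 238 reads, or 4.03 RPM (2.95 to 5.37), 6.90 RPM (5.53 to 8.50) and 20.4 RPM (17.9 to 23.2). The order of the levels was miR-129-5p, then miR-129-2-3p, then miR-129-1-3p at each age, and no intervals of these miRNAs overlapped within an age. For each miRNA the intervals of P7 and P17 were also apart, and those of P1 and P7 were apart for miR-129-5p and miR-129-2-3p and, narrowly, for miR-129-1-3p.

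**Figure D1:**
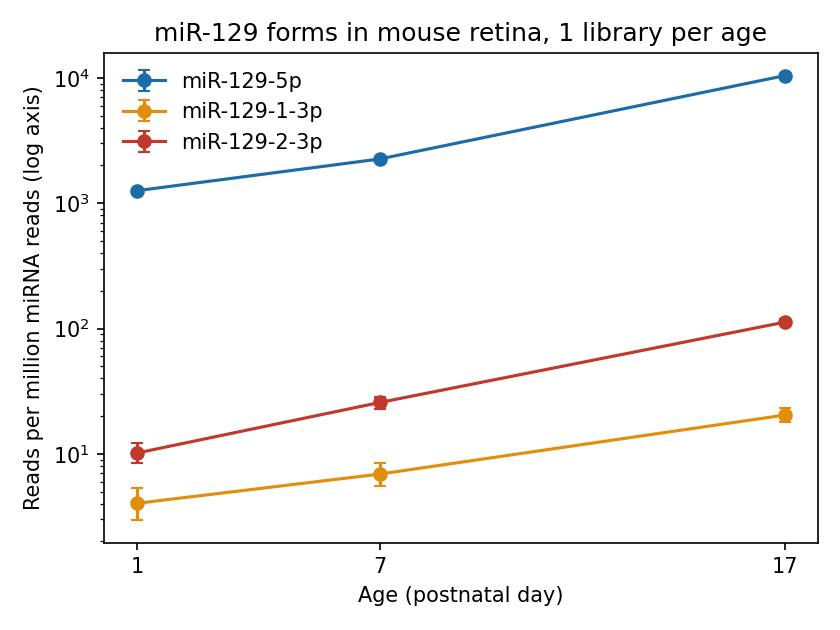
Level of the 3 miR-129 miRNAs in RPM (log axis) against age in postnatal days, with 1 library per age. Points are the deposited RPM values and bars are exact 95% binomial intervals of counting error. Each line is higher at each later age, from 1258 to 10438 RPM for miR-129-5p, 10.2 to 112.5 RPM for miR-129-2-3p and 4.03 to 20.4 RPM for miR-129-1-3p.

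Among all miRNAs, the nearest in level to miR-129-5p were miR-543-3p (1259 RPM) and miR-186-5p (1238 RPM) at P1, whose intervals overlap that of miR-129-5p. At P7 it stood between miR-101a-3p (2313 RPM) and miR-124-3p (2055 RPM). At P17 it stood between miR-124-3p (12777 RPM), the leading neuronal miRNA of the brain and retina, and miR-204-5p (9019 RPM), a miRNA of the pigment epithelium and other eye tissues. At P7 and P17 the intervals of these neighbours did not overlap that of miR-129-5p. Both 3p miRNAs had neighbours whose intervals overlapped theirs at every age. At P17 miR-129-2-3p stood between miR-383-5p (113.0 RPM) and miR-106b-5p (108.4 RPM), and miR-129-1-3p between miR-493-5p (20.5 RPM) and miR-31-5p (20.1 RPM).

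From P1 to P17, the share of miRNA reads increased 8.30-fold for miR-129-5p (8.15 to 8.44), 11.1-fold for miR-129-2-3p (9.16 to 13.5) and 5.07-fold for miR-129-1-3p (3.69 to 7.11). With RPM the later step was the larger one for each of them, which depends on the scaling as given further on. From P7 to P17 the increase was 4.63-fold for miR-129-5p (4.57 to 4.69), 4.38-fold for miR-129-2-3p (3.88 to 4.96) and 2.96-fold for miR-129-1-3p (2.31 to 3.82). Over the earlier step it was 1.79-fold for miR-129-5p (1.76 to 1.83), 2.53-fold for miR-129-2-3p (2.04 to 3.16) and 1.71-fold for miR-129-1-3p (1.19 to 2.50). The 3p miRNA of the Mir129-2 locus had the larger fold of the 3p forms at both steps, with intervals that overlapped at the earlier step but not at the later one or over the whole span. These folds have no replicate check.

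The background for these changes was a typical retinal miRNA that lost share. Changes were taken as differences of log2(RPM + 1), a scale that makes changes of rare miRNAs look smaller. Over the 648 miRNAs whose mean over the libraries reached 1 RPM, the median change was -0.87 at the earlier step (P1 to P7), -0.05 at the later step (P7 to P17) and -0.91 over the whole span. All 3 miR-129 miRNAs were over 2-fold higher at P17 than at P1, where 10.5% of the 648 were. All 3 were over 2-fold higher at P17 than at P7, where 14.0% were. From P1 to P7, 1 of the 3, miR-129-2-3p, was over 2-fold higher, where 3.09% were. Since the members were chosen on this course, nothing is read from these counts. The changes from P1 to P17 on this scale were 3.05 for miR-129-5p, 3.35 for miR-129-2-3p and 2.09 for miR-129-1-3p, which placed them 9, 6 and 36 of 648 by size of increase. Relative to the median of all 648 they were 3.96, 4.26 and 3.0.

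The scaling bears on the early step in particular. From P1 to P17, 68 of the 648 miRNAs were over 2-fold higher and 303 over 2-fold lower with RPM, against 165 higher and 155 lower with median-of-ratios size factors, which set the change of a typical miRNA near 0. With those factors all 3 miR-129 miRNAs were over 2-fold higher from P1 to P7, where 9.57% of the 648 were, with log2 changes of 1.80 for miR-129-5p, 2.14 for miR-129-2-3p and 1.42 for miR-129-1-3p. Their later step was then 2.29, 2.18 and 1.54, so that the steps were closer in size than with RPM. With TMM factors, another scaling that holds most miRNAs level, the earlier and later steps of miR-129-2-3p were 2.160 and 2.156. With a library total that leaves out the most abundant miRNAs they were 1.92 and 1.87 for miR-129-2-3p and 1.32 and 1.29 for miR-129-1-3p. In these cases the steps were too close for their order to be told from the counts. With RPM the log2 intervals of the earlier step were 1.03 to 1.66 for miR-129-2-3p and 0.25 to 1.32 for miR-129-1-3p. For miR-129-5p the later step was the larger under every scaling. The direction of every step was the same under each scaling tried.

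**Figure D2:**
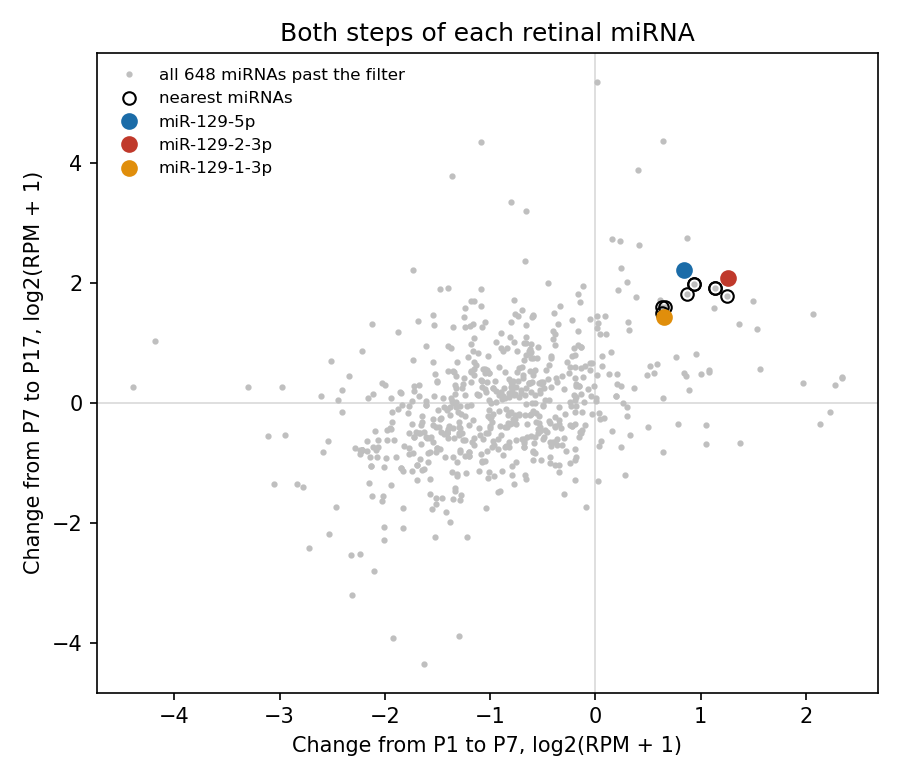
Change from P1 to P7 (x axis) against the change from P7 to P17 (y axis), both on the log2(RPM + 1) scale, for the 648 miRNAs past the filter (grey), the 3 miR-129 miRNAs (coloured) and the miRNAs nearest to them (open circles). The 3 miR-129 miRNAs lie at 0.65 to 1.26 on the x axis and 1.44 to 2.21 on the y axis, to the upper right of most other miRNAs.

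The 3p reads show how the loci compare, as far as the counting told the near-identical forms apart. Of all 3p reads of miR-129, 162 at P1, 416 at P7 and 1550 at P17, miR-129-2-3p made up 71.6% (64.0% to 78.4%), 78.8% (74.6% to 82.7%) and 84.6% (82.8% to 86.4%). This is 2.52 reads of miR-129-2-3p for each read of miR-129-1-3p at P1 (1.78 to 3.63), 3.73 at P7 (2.94 to 4.77) and 5.51 at P17 (4.80 to 6.36). The Mir129-2 form was thus the more abundant at every age, and its share at P17 lay above the interval at P1. The share changed by 13.04 percentage points from P1 to P17 (interval of the difference 5.98 to 20.8), by 7.24 points from P1 to P7 (-0.77 to 15.8) and by 5.799 points from P7 to P17 (1.53 to 10.4). A share within 1 library does not depend on the scaling. The 5p reads cannot be divided between the loci, because both hairpins give the same sequence.

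How identical sequences were counted can be read from the tables. In the RefSeq table, 4 mature sequences are listed under more than 1 of the names used here, and for all 4 the counts under these names were equal in every library. One of them is the 3p miRNA shared by let-7a-1-3p and let-7c-2-3p, with 14521 reads under each name at P1. Reads of an identical sequence were therefore entered under each of its names. The 3p forms of miR-129 have different counts, and the part that reads matching both played in these counts was not tested.

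Set beside other miRNAs whose loci carry a number, the shift within miR-129 was a middling one. For 19 miRNAs, miR-129 included, both numbered forms had at least 10 reads over the libraries. By the size of the change in share from P1 to P17, miR-129 was in place 8 of 19, and the median of the 18 others was 7.04 percentage points. The place is loose, since the miR-129 interval (5.98 to 20.8 points) takes in the values of other pairs, from 8.24 to 20.5 points. Pairs with a share near 0% or 100% at every age have little room to move on this scale. The largest shift was that of miR-135a, where the share of miR-135a-2-3p went from 37.1% to 89.9%, with 31 reads of miR-135a-1-3p and 277 of miR-135a-2-3p at P17. The next was miR-365, where the share of miR-365-2-5p went from 12.5% to 63.2%. It rests on few reads, 7 of miR-365-1-5p and 1 of miR-365-2-5p at P1 against 7 and 12 at P17. Both numbered forms were higher at P17 in 3 of the 19 miRNAs on the log2(RPM + 1) scale, both were lower in 11, and they moved in opposite directions in 5. With median-of-ratios size factors or TMM factors these counts were 5, 6 and 8. The let-7a and let-7c pairs hold the shared sequence described above, and without them 3, 11 and 3 of 17 pairs remain with RPM and 5, 6 and 6 with the size factors. Direction in these counts is the sign alone, however small the change. Among the pairs counted as opposite with RPM, the forms of miR-125b changed by -1.92 and 1.53. In others 1 form hardly changed, miR-365-1-5p by -0.009 and miR-7a-1-3p by 0.08. Both forms were over 2-fold higher for 1 of the 19 with RPM, miR-129, where 10.5% of the 648 single miRNAs were. With the size factors this held for 3, miR-129, miR-29b and miR-24, where 25.5% of the single miRNAs were. MiR-29b and miR-24 are named here after their values were seen. Since miR-129 was chosen on this course, nothing is read from its place in these counts. The call of miR-29b rests on few reads, since miR-29b-1-5p had 0, 0 and 10.

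**Figure D3:**
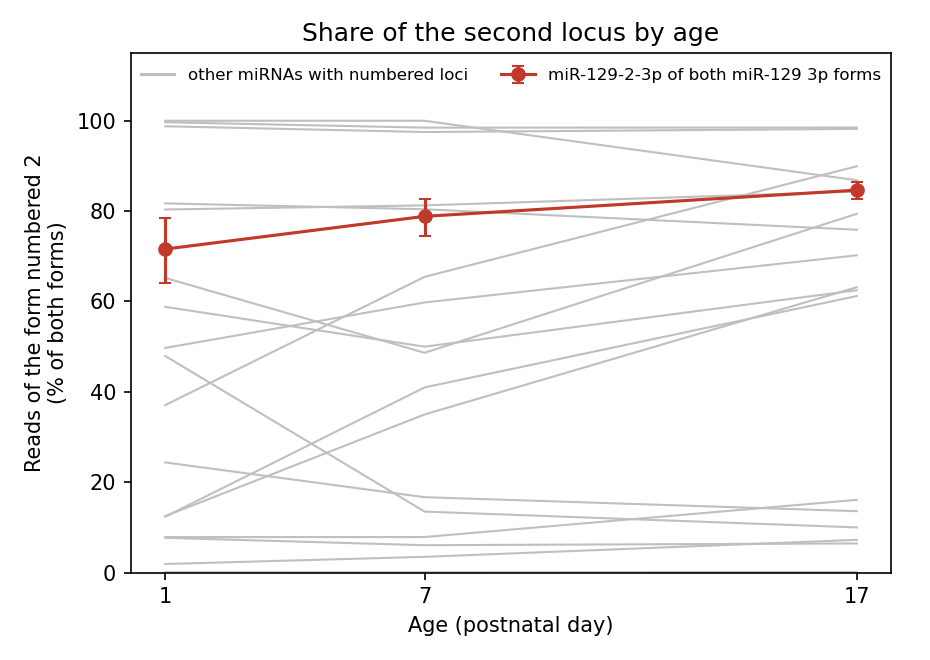
Reads of the form numbered 2 as a percentage of the reads of both numbered forms (y axis) against age in postnatal days, for miR-129 (red, with exact 95% binomial intervals) and 18 other miRNAs (grey lines, without intervals). The miR-129 share was 71.6%, 78.8% and 84.6% at P1, P7 and P17, and the grey lines move both up and down.

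The balance of the arms was far to the 5p side and moved little. There were 88.7 reads of miR-129-5p for each 3p read of both loci at P1 (76.0 to 104), 69.2 at P7 (62.8 to 76.4) and 78.5 at P17 (74.7 to 82.6). The 3p reads were 1.11%, 1.42% and 1.26% of all miR-129 reads at these ages. The log2 ratio changed by -0.18 from P1 to P17 (-0.42 to 0.06), an interval that includes no change. It changed by -0.36 from P1 to P7 (-0.63 to -0.09) and by 0.18 from P7 to P17 (0.02 to 0.34). In comparison, 191 other hairpins had 5p and 3p arms that both reached a mean of 1 RPM, and 107 of them had more 5p than 3p reads on average. Not all of the 191 are separate, since some have the same read total for an arm, such as 7892 for miR-199a-3p and miR-199b-3p. The median change of the 191 was 0.17, with the middle 90% between -1.89 and 1.76. The change was larger in size than that of miR-129 in 166 of the 191, and 30 of the 191 had a higher average ratio of 5p to 3p reads. Some arms of these hairpins had as few as 36 reads over all libraries, so their changes carry more counting error than that of miR-129. How much of the count of 166 comes from counting error was not tested. The 5p and the summed 3p reads of miR-129 thus increased nearly in parallel over the whole span. This holds for the sum and not for each 3p form. The folds were 11.1 for miR-129-2-3p (9.16 to 13.5) and 5.07 for miR-129-1-3p (3.69 to 7.11), against 8.30 for miR-129-5p (8.15 to 8.44).

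**Figure D4:**
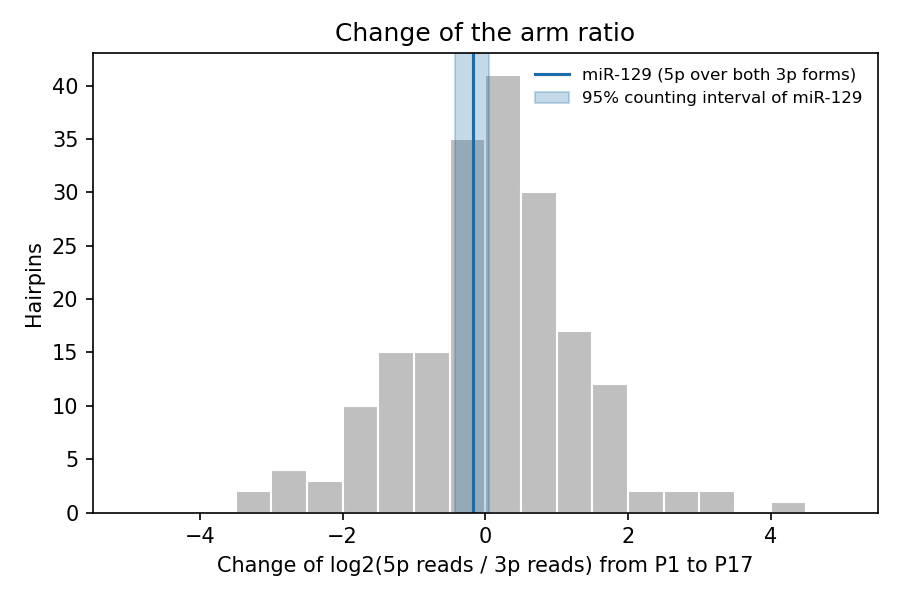
Number of hairpins (y axis) by the change in log2 of the ratio of 5p to 3p reads from P1 to P17 (x axis, bins of 0.5) for 191 hairpins. The blue line marks miR-129, with both 3p forms summed, at -0.18, and the shaded band its counting interval from -0.42 to 0.06.

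The Mir129-2 locus shares its annotated host gene with another miRNA that took the opposite course. MiR-670 was added after the members' values were seen, because its hairpin lies in the same host, Mir670hg, on the same strand and 19846 bases away at chr2:94261300-94261399. From P1 to P7 to P17, miR-670-3p went from 98 to 39 to 14 reads and miR-670-5p from 53 to 12 to 6 reads, so that both were lowest at P17. The share of miRNA reads was 7.14-fold lower at P17 than at P1 for miR-670-3p (4.06 to 13.5) and 9.01-fold lower for miR-670-5p (3.88 to 25.7). On the log2(RPM + 1) scale their changes were -2.12 and -1.90 with RPM, where the median of the 648 was -0.91 and 46.8% were over 2-fold lower. With median-of-ratios size factors they were -1.32 and -1.23, where the median was 0.01 and 23.9% were over 2-fold lower. The number of miR-129-2-3p reads for each read of miR-670-3p, which does not depend on the scaling, was 1.18 at P1 (0.90 to 1.57), 8.41 at P7 (6.02 to 12.0) and 93.7 at P17 (55.7 to 172). At P1 the interval of this ratio includes 1, and at P7 and P17 it does not. Of the 5 annotated Mir670hg transcripts that span the Mir670 hairpin, 1 overlaps it with an exon.

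**Figure D5:**
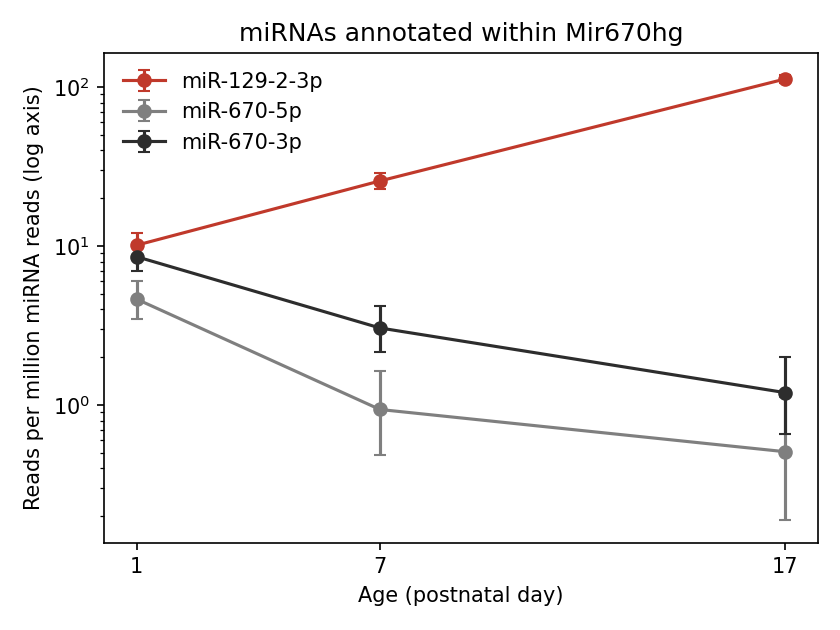
Level in RPM (log axis) against age in postnatal days for miR-129-2-3p and both arms of miR-670, which are annotated within the same host gene. Points are single libraries and bars are exact 95% binomial intervals. MiR-129-2-3p went from 10.2 to 112.5 RPM, whereas miR-670-3p went from 8.58 to 1.20 RPM and miR-670-5p from 4.64 to 0.51 RPM.

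The opposite strand of Mir129-2 has an annotated hairpin of its own, Mir129b, at chr2:94241378-94241442. A run of 20 bases of miR-129b-5p is complementary to miR-129-2-3p, and 20 bases of miR-129b-3p are complementary to miR-129-5p. Both arms of miR-129b had 0 reads in all 3 libraries, which allows levels of up to 0.263, 0.235 and 0.257 RPM in the P1, P7 and P17 libraries, taking 3 reads as the upper limit of a count of 0, a 1-sided limit at about the 95% level.

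The miRNAs whose course was most like that of miR-129 were found by the distance between the pairs of log2 changes (P1 to P7, and P7 to P17) over the 428 other miRNAs that averaged 10 RPM or more. Each course rests on 3 libraries. The nearest to miR-129-5p were miR-143-3p (distance 0.24), miR-190b-3p (0.39) and miR-145a-5p (0.42), against a median distance of 2.93. The nearest to miR-129-2-3p were miR-145a-5p (0.22), miR-344d-3p (0.30) and miR-143-3p (0.34). MiR-143-3p, a miRNA of smooth muscle cells and pericytes, went from 189.6 to 363.2 to 1440.0 RPM over the 3 ages. MiR-129-1-3p had other neighbours, miR-132-3p (0.07), miR-212-5p (0.15) and miR-132-5p (0.16), which come from 1 cluster known to be induced by neuronal activity. MiR-132-3p went from 29.1 to 45.6 to 131.1 RPM. Rare neighbours are loosely placed, since miR-190b-3p, miR-145a-5p and miR-344d-3p had 57, 62 and 51 reads at P1. MiR-129-1-3p itself, with 46 reads at P1, is loosely placed too. Its log2 intervals, taken without a pseudocount, were 0.25 to 1.32 at the earlier step and 1.21 to 1.94 at the later one. These are wide beside the distances given.

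With RPM, other miRNAs enriched in neurons did not share 1 course. Of 11 on a list that includes miR-9, miR-124, miR-128 and miR-132, 0 were over 2-fold higher and 3 over 2-fold lower at the earlier step, where 3.09% and 44.8% of the 648 were. At the later step 3 were over 2-fold higher, against 14.0%. From P1 to P17, 3 were over 2-fold higher and 3 over 2-fold lower, against 10.5% and 46.8%, with a median log2(RPM + 1) change of 0.09, against -0.91 over all 648. The 3 higher were miR-124-3p (3.05), miR-132-3p (2.13) and miR-212-3p (1.67). MiR-124-3p went from 1544 to 2055 to 12777 RPM. Its change from P1 to P17 was that of miR-129-5p to 2 decimals, but more of it came after P7, with 2.64 against 2.21. The 3 lower were miR-218-5p (-1.86), miR-153-3p (-1.38) and miR-128-3p (-1.21), and with median-of-ratios size factors these changes were -0.82, -0.34 and -0.16, none of them past 2-fold. MiR-9-5p, the most abundant miRNA of the list, changed by -0.96 with RPM and by 0.08 with median-of-ratios size factors. With those factors 6 of the 11 were over 2-fold higher from P1 to P17 and 0 lower, against 25.5% and 23.9% of the 648. The further 3 were miR-138-5p (1.35), miR-137-3p (1.34) and miR-384-5p (1.12). At the earlier step 2 of the 11 were then over 2-fold higher and 0 lower, against 62 and 71 of the 648.

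Of 8 lists of cell type markers, those of endothelium and mural cells had sums higher at each later age, as miR-129 was. The sums were taken with RPM alone, and on that scale those of the other 6 lists took other courses. How the sums move under other scalings was not tested. Single members of those 6 could still be higher at each later age, as miR-183-5p (27700, 81732 and 121650 RPM) and miR-124-3p were. The summed level of the photoreceptor and sensory miRNAs miR-183-5p, miR-96-5p and miR-182-5p went from 77854 to 304394 to 301141 RPM over the 3 ages. In RPM it thus increased up to P7 and was nearly level after, so the order of its P7 and P17 sums could differ under another scaling. The later step of these members, in the order named, had log2 changes of 0.57, -0.14 and -0.35 in RPM. Median-of-ratios scaling gave 0.66, -0.06 and -0.27, and the library total without the most abundant miRNAs gave 0.33, -0.39 and -0.60. The endothelial miR-126a-3p and miR-126a-5p together had 1261, 3643 and 8530 RPM, and the mural cell miRNAs miR-143-3p and miR-145a-5p together had 195, 376 and 1492 RPM at these ages. The pigment epithelium miRNAs miR-204-5p and miR-211-5p together had 15211, 7226 and 14334 RPM, of which miR-211-5p was 550, 259 and 5315 RPM. The blood and immune list of 4 summed to 21.6 to 53.7 RPM, the muscle list of 3 to 90.0 to 240.1 RPM and the liver miRNA miR-122-5p to 2.27 to 5.78 RPM. In the blood and immune list, miR-451a set the course of the sum, with 45.5, 11.7 and 27.9 RPM. MiR-144-3p (1.14, 1.18 and 4.46 RPM), miR-142a-3p (6.91, 8.46 and 8.49 RPM) and miR-223-3p (0.18, 0.24 and 0.60 RPM) had higher RPM at each later age, on few reads. MiR-144-3p had 13, 15 and 52 reads, miR-142a-3p 79, 108 and 99, and miR-223-3p 2, 3 and 7. The later step of miR-142a-3p was 0.005 with RPM and -0.23 with the library total without the most abundant miRNAs. The retinal neuron miRNAs miR-124-3p and miR-9-5p together had 145803, 127817 and 86788 RPM, most of it miR-9-5p. Every miRNA on these 8 lists had reads at every age. Their part in the increase of miR-129 was not tested.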

How the data were processed

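MiRNAs were sequenced from total RNA of pooled mouse retinas with a small RNA kit. Per the authors' methods, adaptor sequence and poor reads were trimmed away before alignment to mm10. The paper's methods name HISAT2 with default parameters, whereas the submitters' processing notes list FastQC and BWA; the miRNA annotation and the counting rule are not given in the sources used here. The authors deposited the raw read count of each mature miRNA and an RPM value, which matches each count over its library's summed miRNA counts to within 0.0192 RPM.

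Ages came from the sample labels. With 1 library per age there was no test across samples. The study's criterion of a fold above 2 was applied to log2(RPM + 1) for miRNAs averaging 1 RPM or more, without its adjusted p-value. Intervals of shares, ratios and folds came from exact binomial intervals of the counts; intervals of differences combine those of both libraries in quadrature. Arm ratios of other hairpins had 0.5 reads added to each arm. The members and lists were chosen with earlier results of these data known. Besides the 3 members, miRNAs were named by rule: rows named miR-129 or with a shared seed, the 3 nearest courses to each member, the neighbours in level, the 2 largest shifts between numbered loci a list of 11 neuron-enriched miRNAs and 8 lists of cell type markers. MiR-670, miR-29b, miR-24, miR-7a, miR-125b, miR-199a, miR-199b and the let-7 pair are exceptions, chosen after their values were seen. Sequences were read from RefSeq (GRCm38.p6), where 1623 of the 1915 names had a mature entry, and host genes from GENCODE M21. The alternatives were other pseudocounts, filters and scalings. The calls and intervals were also run on simulated counts with counting error alone, in which abundant miRNAs were given no change. In the real libraries the 13 miRNAs left out of the reduced total took 61.8% of reads at P1 and 75.2% at P7. The simulation therefore does not check the scaling. TMM factors came from edgeR 4.0.16 in R 4.3.3. Everything else was computed in Python 3.11.15 with pandas 2.3.3, scipy 1.17.1 and numpy 2.4.6, and plotted with matplotlib 3.10.9.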

Additional observations from a re-analysis of the deposited data

How the results depend on the processing

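No value of miR-129 changed direction under any of the alternatives tried. The log2 changes from P1 to P17 of miR-129-5p, miR-129-1-3p and miR-129-2-3p were 3.05, 2.09 and 3.35 with RPM. They were 4.10, 2.96 and 4.32 with median-of-ratios size factors, and the TMM factors gave 4.10, 2.96 and 4.32, whereas 3.43, 2.61 and 3.80 came from a library total that leaves out the 10 most abundant miRNAs of any library. The cause of these shifts was not tested. A pseudocount of 5 RPM gave 1.49 for miR-129-1-3p and 2.96 for miR-129-2-3p, since it weighs more on rare miRNAs. Over both single steps, 13 of 36 alternative values moved beyond counting error, and all were increases, between 0.40 and 2.29. The miRNAs over 2-fold higher and lower from P1 to P17 numbered 68 and 303 with RPM, 165 and 155 with median-of-ratios size factors, and again 165 and 155 when TMM was used. With 1 count added to each 3p form the change in locus share was 13.3 against 13.04 percentage points, and with miR-129-2-3p alone as the 3p arm the log2 arm ratio changed by -0.42 against -0.18. Depth limits the 3p forms at P1, where miR-129-1-3p rests on 46 reads. No paired analysis was possible because a single library stands for each age, which also leaves no replicate to leave out.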
